A study of Mus musculus with 6 samples.

Results

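The genes described here encode the laminins of the basement membrane and the proteins nidogen and dystroglycan, which bind them. They also encode fibronectin, the integrin receptors, and the proteins that join integrins to actin at focal adhesions. They were chosen by symbol, as the laminin chains Lama, Lamb and Lamc, the integrin chains Itga and Itgb, and 15 named partners, which gave 51 members of the 32493 genes counted. All 51 were found in GENCODE M21 on GRCm38, the assembly also called mm10. RNA-seq had been run on neural stem cells (NSCs) from the lateral ventricles of E14.5 mouse embryos after 3 generations in culture with EGF and bFGF. The miR-151 cko embryos were homozygous for a floxed miR-151 allele and carried Emx1-IRES-Cre, and the ctrl embryos, which the sample labels call wt, were homozygous for the same allele without Cre; the study describes them as littermates. Both were on a C57BL/6J background. Emx1-IRES-Cre acts in the dorsal telencephalon, so cells of other origin in the dissected tissue would keep the miRNA. The libraries compared were 3 cko and 2 ctrl, because every gene of the column deposited for ctrl replicate 2 held the average of its other two ctrl columns, taken up to the next whole number.

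A laminin is a trimer of one α, one β and one γ chain, secreted into the basement membrane, where nidogens tie it to collagen IV. Integrins are heterodimers of one α and one β chain, and the pairing sets the ligand: α3, α6 and α7 with β1 bind laminin, αv with β5 or β8 binds vitronectin or latent TGF-β, and α4 with β1 or β7 binds VCAM-1 and fibronectin. Inside the cell talin and kindlin bind the β tail, and paxillin, vinculin, ILK and parvin build the plaque on which FAK and SRC phosphorylate BCAR1. In the developing cortex the end feet of radial glia, the neural stem cells, attach to the laminin-rich basement membrane at the pial surface. The FAK gene *Ptk2* carries miR-151 in one of its introns, and it served as a check on the locus.

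The libraries held 17883796 to 23335736 counts each, so 3 counts corresponded to 0.129 to 0.168 CPM, a limit that covers counting error only. Values are CPM (counts scaled to library size) after TMM normalization, errors are SD over libraries, and log2 fold changes (cko minus ctrl) come from edgeR's quasi-likelihood test over 16710 genes with Benjamini-Hochberg adjustment. The labels do not say whether libraries of one genotype came from separate embryos or cultures, so the p-values measure only the spread between these libraries. All 8 NSC markers looked at passed the filter, with *Sox2* at 556 to 626 CPM. Of these 8, *Nes*, *Hes5* and *Prom1* were higher in cko, and *Sox2*, *Pax6*, *Vim*, *Fabp7* and *Sox9* were not called. Over all tested genes 8.57% were lower and 7.86% higher in cko. The sum of the 8 markers was 5437 and 6697 CPM in ctrl against 7660 to 8189 CPM in cko. Most of this sum was *Vim* and *Fabp7*, with *Vim* at 1995 and 3101 CPM in ctrl and 3374 to 3547 CPM in cko. Of 7 neuron markers, *Dcx* was lower and *Syt1* and *Elavl4* were higher, with sums of 1130 and 1261 against 1273 to 1305 CPM. RNA of the endothelial markers other than *Kdr* and of the microglia and leukocyte markers was low, at most 0.643 CPM in any library. *Pecam1* and *Esam* still had reads in every library and passed the filter. *Cdh5* and *Cx3cr1* had no counts in any of the 5 libraries. The 7 endothelial markers summed to 4.89 and 5.71 CPM in ctrl and 5.70 to 7.22 CPM in cko. Most of this was *Kdr*, at 3.71 and 4.11 CPM in ctrl and 4.67 to 6.43 CPM in cko (not called, adjusted p = 0.236 in edgeR). *Cldn5*, also on the list, was not found by symbol among the genes counted. The 8 microglia and leukocyte markers summed to 0.568 and 1.28 against 0.276 to 0.671 CPM. Glial markers moved with genotype too. Of 8 astrocyte markers, 4 were lower in cko (adjusted p under 0.05 in edgeR), beside 8.57% of all tested genes. The sum of the 8 was 3492 and 4314 CPM in ctrl against 1781 to 2487 CPM in cko. *Gfap*, not called (adjusted p = 0.126 in edgeR), differed widely between ctrl libraries 1 and 3, at 1008 and 178 CPM. In the cko libraries *Gfap* measured 86.7 to 298 CPM. Of 10 oligodendrocyte lineage markers, 6 were lower, *Mbp* and *Mag* among them, and 2, *Olig1* and *Olig2*, were higher. The sum of the 10 overlapped between genotypes (3028 and 3453 against 3235 to 3395 CPM). *Mag*, at 84 and 48 counts in ctrl and 0, 2 and 0 in cko, passed the filter through its ctrl libraries alone. Its call is therefore not free of the filter. Of 10 mural and fibroblast markers, *Foxc1* was lower in cko and the sum was 14.55 and 22.4 against 4.98 to 6.39 CPM. Most of this sum was *Foxc1* itself, at 10.7 and 15.3 CPM in ctrl and 3.25 to 3.86 CPM in cko. *Col3a1* had 42 counts in ctrl library 3 and at most 1 in any other library. The part of these cell types in the results below was not tested, and in bulk RNA fewer cells of a type and less RNA per cell cannot be told apart.

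Of the 51 members, 40 passed the filter on low counts and 18 of these were called, 14 lower and 4 higher in cko NSCs. The lower share was 35.0% of the tested members against 8.57% of all tested genes, and the higher share 10% against 7.86%, with 16.4% of all genes called in either direction. The largest falls belonged to *Itgb4*, *Itgb7*, *Fn1*, *Itgb5* and *Lamb2*, and the largest rise to *Itga4*. Fold changes were below 0 in 29 members and above 0 in 11, with a median log2 fold change of -0.28, beside -0.0026 over all tested genes. Libraries of the genotypes did not overlap in 20 members lower in cko (50%, beside 24.3% of all tested genes) and in 6 higher members (15%, beside 25.4%). At a log2 fold change beyond 0.9 with an unadjusted p under 0.01, a rule that keeps only large changes, 7 members were lower and 2 higher, beside 4.17% and 2.39% of all tested genes. These shares describe the tested members only, and *Lama2* passed the filter through its ctrl libraries alone. *Itgb7*, a called member, also needed its ctrl libraries to pass, at 1.83 and 1.39 CPM against 0.392, 0.514 and 0.230 CPM in cko. Its call is therefore not free of the filter.

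**Figure D1:**
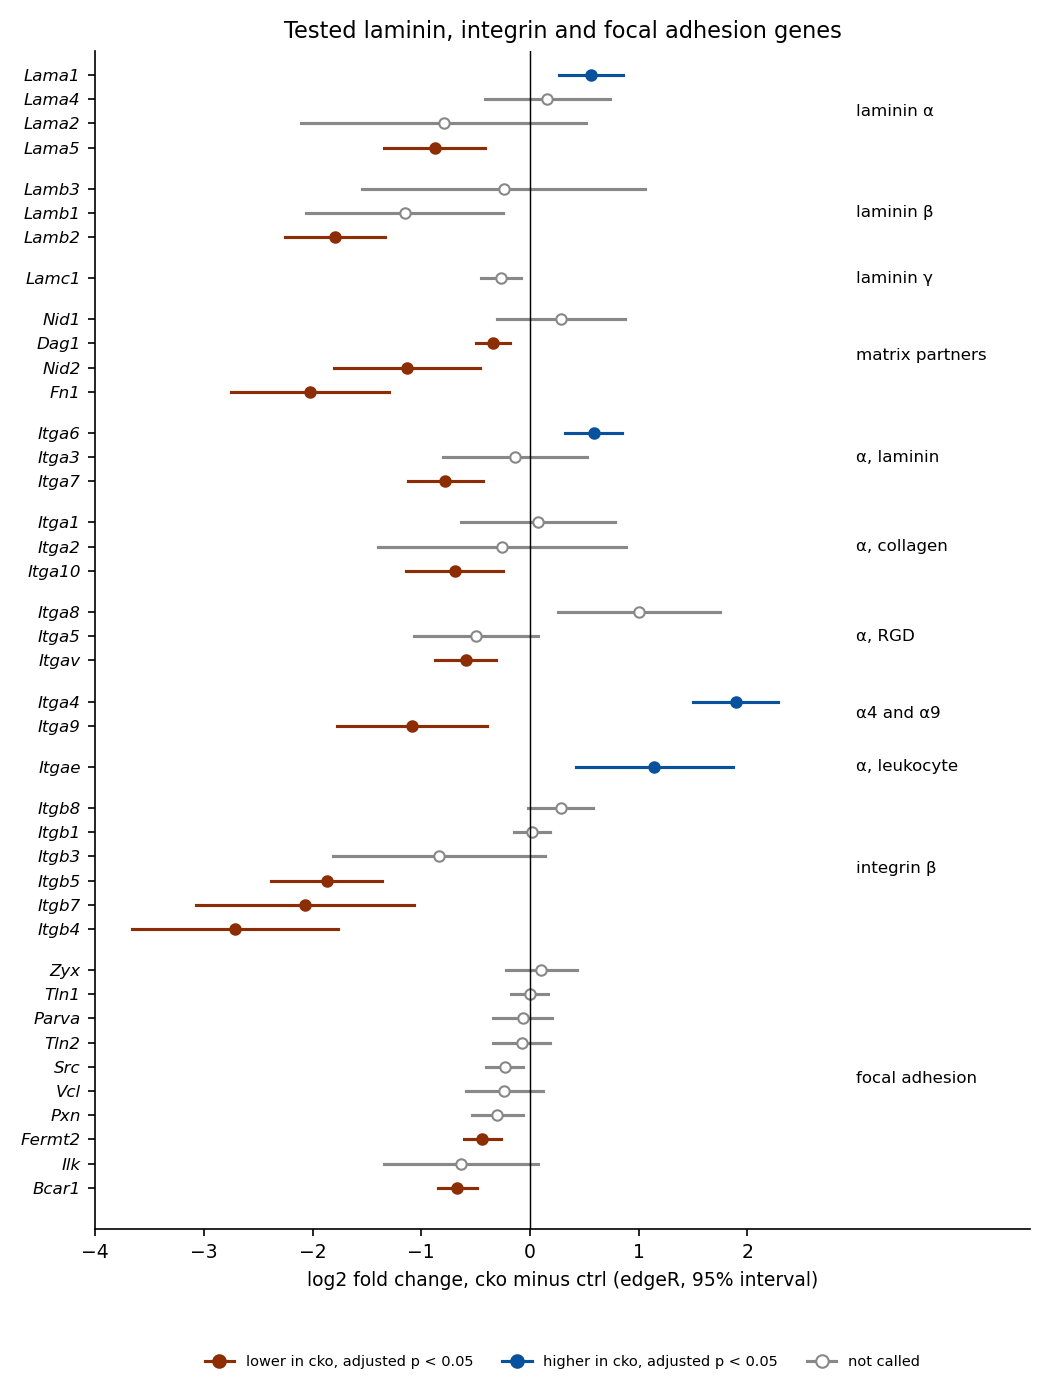
Log2 fold change (cko minus ctrl, x axis) of the 40 tested members with 95% intervals from edgeR, grouped by role (names at right). Filled dark red points mark the 14 members lower and filled blue points the 4 members higher in cko at an adjusted p under 0.05, and open grey points the 22 members not called.

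Leaving out a cko library lowered the number of calls, and leaving out a ctrl library did not. Without cko library 2, and likewise without cko library 3, 5 members were lower and 1 higher in edgeR, while the shares of all tested genes were 2.55% and 2.80% lower and 1.95% and 2.06% higher. Without cko library 1 the members' counts were 9 and 2, beside 5.50% and 5.18% of all tested genes. Without ctrl library 1 they were 15 and 6 (beside 11.9% and 9.74%), and without ctrl library 3 they were 16 and 5 (beside 10% and 10.3%). At an adjusted p under 0.05, the members called under each of these fits and under every other alternative fit were *Lamb2*, *Fn1*, *Itga4*, *Itgb4*, *Itgb5* and *Bcar1*. By the rule for large changes *Bcar1* was not called, at a log2 fold change of -0.67. The other 12, *Lama1*, *Lama5*, *Nid2*, *Dag1*, *Itga6*, *Itga7*, *Itga10*, *Itgav*, *Itga9*, *Itgae*, *Itgb7* and *Fermt2*, lost the call without cko library 2 or 3. Of these, *Lama1*, *Lama5*, *Nid2*, *Itga10*, *Itga9*, *Itgae* and *Itgb7* also lost it without cko library 1. Without ctrl library 1, *Itga10*, *Itga9*, *Itgae* and *Itgb7* lost it, and without ctrl library 3, *Nid2* and *Itga10* did. No called member changed direction when a library was left out.

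Laminin chains came first as the ligands. Per kb of exon, *Lamc1*, which encodes γ1, the γ chain of most laminins, stood highest at 22.1 CPM per kb in ctrl and 18.4 in cko, and *Lama5* and *Lamb2* followed in ctrl at 17.1 and 17.2 CPM per kb. *Lamb2* encodes the β2 chain found at synapses, in kidney and at the pial surface. It measured 120 and 88.5 CPM in ctrl libraries 1 and 3 and 37.8, 24.0 and 28.9 CPM in the cko libraries. Every cko library lay far below the lower ctrl library, and *Lamb2* fell by 1.79 on the log2 scale (standard error 0.20, adjusted p = 0.00247 in edgeR). *Lama5*, the α5 chain found in many adult basement membranes, measured 151 and 240 CPM in ctrl and 89.1, 108 and 121 CPM in cko. The genotypes did not overlap, but the ctrl libraries stood far apart, and *Lama5* fell by 0.88 on the log2 scale (standard error 0.20, adjusted p = 0.0264 in edgeR) and by 0.50 without ctrl library 3. *Lama1*, the α1 chain of the laminin of early embryos, went the other way. It measured 9.83 and 10.1 CPM in ctrl and 14.4, 15.2 and 14.7 CPM in cko, close together within each genotype, and rose by 0.57 on the log2 scale (standard error 0.13, adjusted p = 0.0244 in edgeR).

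The other laminin chains were not called. *Lamc1* measured 174 and 192 CPM in ctrl and 147, 149 and 160 CPM in cko. These did not overlap, with a log2 fold change of -0.27 (95% interval -0.45 to -0.08, adjusted p = 0.0615 in edgeR), and the adjusted p ranged from 0.0143 to 0.206 over the alternatives. *Lamb1* differed more between the ctrl libraries, at 15.6 and 41.6 CPM, than ctrl library 1 did from the cko libraries, at 9.06 to 15.1 CPM (log2 fold change -1.15, adjusted p = 0.0857 in edgeR). *Lama4*, the α chain of vessel laminins, overlapped between genotypes at 9.39 and 16.3 against 12 to 16.4 CPM. *Lama2* and *Lamb3* stayed under 1 CPM in every library. *Lama3* and *Lamc3* were too low to be tested and reached 27 and 7 counts in their highest library. As a sum over the 3 β chain genes, laminin β RNA was 136 and 131 CPM in ctrl and 47.3, 39.5 and 43.4 CPM in cko.

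Among the other matrix genes, *Fn1*, which encodes fibronectin, measured 16.6 and 34.5 CPM in ctrl and 4.81, 6.64 and 7.26 CPM in cko. All cko libraries were below both ctrl libraries, and *Fn1* fell by 2.02 on the log2 scale (standard error 0.31, adjusted p = 0.00709 in edgeR), which was 1.40 without ctrl library 3. *Nid2*, nidogen-2, was low throughout, at 4.37 and 7.79 CPM in ctrl and 3.08, 2.79 and 2.44 CPM in cko. Its log2 fold change was -1.13 (standard error 0.29, adjusted p = 0.0373 in edgeR), and -0.66 without ctrl library 3 (adjusted p no longer under 0.05). *Nid1*, nidogen-1, overlapped between genotypes at 15.6 and 10.2 against 12.8 to 20.3 CPM. *Dag1* encodes dystroglycan, the non-integrin laminin receptor, and had the second highest level per kb of the members in ctrl and the third in cko, at 70.0 CPM per kb in ctrl and 55.4 in cko. It measured 440 and 451 CPM in ctrl and 355, 351 and 350 CPM in cko. The spread within each genotype was small beside this gap, and *Dag1* fell by 0.34 on the log2 scale (standard error 0.07, adjusted p = 0.0180 in edgeR).

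**Figure D2:**
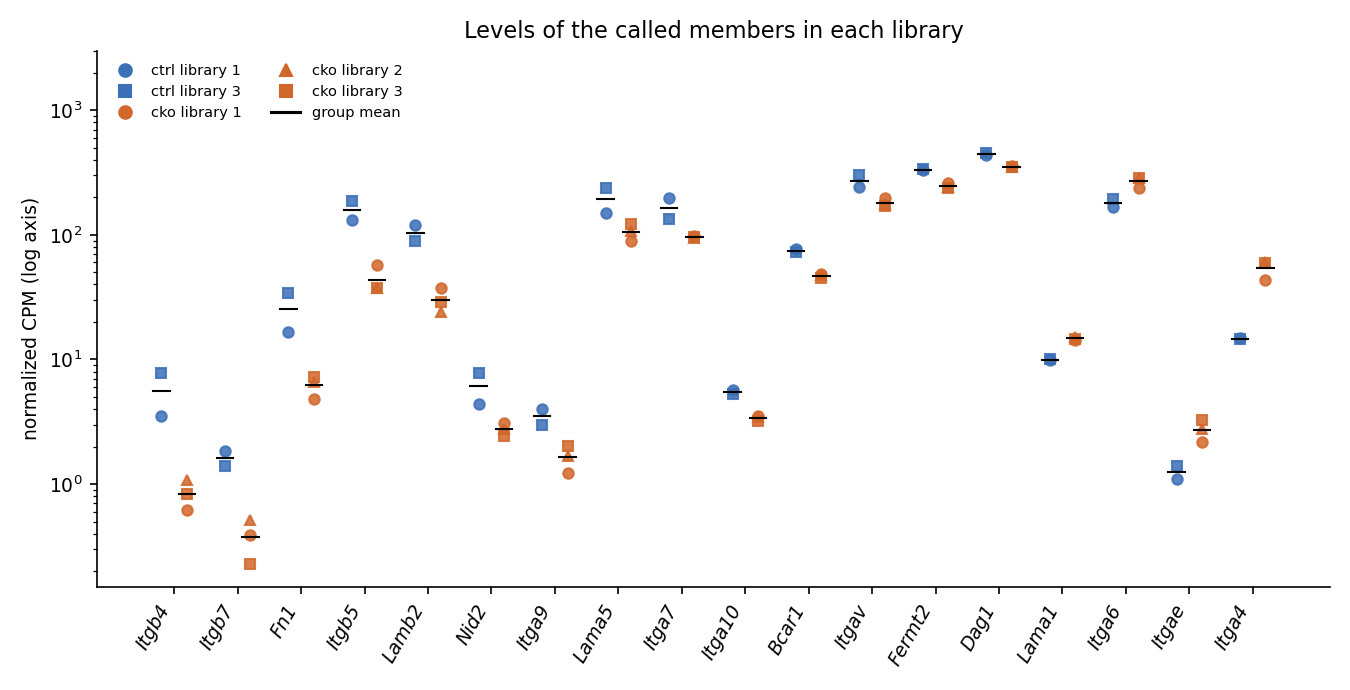
Normalized CPM (log axis) of the 18 called members, ordered from the most lowered to the most raised, in ctrl libraries 1 and 3 (blue) and cko libraries 1 to 3 (orange), with group means as black bars. In each gene the 3 cko libraries lie on one side of both ctrl libraries.

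The α chains of the laminin receptors moved in opposite directions. *Itga6* encodes α6, a surface marker used to enrich neural stem cells, and measured 167 and 192 CPM in ctrl and 238, 284 and 288 CPM in cko. All cko libraries were above both ctrl libraries, and *Itga6* rose by 0.59 on the log2 scale (standard error 0.11, adjusted p = 0.0145 in edgeR). *Itga7*, the α7 chain best known from muscle, measured 196 and 134 CPM in ctrl and 97.9, 94.5 and 96.5 CPM in cko. The cko libraries were nearly equal and below both ctrl libraries, and *Itga7* fell by 0.78 on the log2 scale (standard error 0.15, adjusted p = 0.0140 in edgeR), which was 0.48 without ctrl library 1. Scaled for exon length, the ratio of *Itga6* to *Itga7* within a library was 0.761 and 1.29 in ctrl and 2.18, 2.69 and 2.68 in cko. *Itga3*, the third chain of this kind, stayed between 1.37 and 1.75 CPM in every library.

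In the pair α4 and α9, which share a branch of the integrin family, the change was larger. *Itga4*, the α4 chain of receptors for VCAM-1 and fibronectin, measured 14.8 and 14.6 CPM in ctrl and 43.1, 61.0 and 59.5 CPM in cko. Each cko library was well above the ctrl pair, with means of 14.7 ± 0.102 (SD, n = 2) and 54.5 ± 9.95 (SD, n = 3), and *Itga4* rose 3.71-fold (log2 fold change 1.89, standard error 0.17, adjusted p = 0.00133 in edgeR). It had the smallest adjusted p of the 51 members. *Itga9*, the α9 chain that binds tenascin-C, was low and fell, from 4.02 and 2.99 CPM to 1.23, 1.67 and 2.02 CPM (log2 fold change -1.09, adjusted p = 0.0462 in edgeR). Within a library *Itga4* stood 2.02 and 2.69 times above *Itga9* per kb in ctrl and 19.3, 20.1 and 16.2 times above it in cko.

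*Itgav*, the αv chain that pairs with several β chains, was the most abundant of the RGD-binding α chains, at 25.4 CPM per kb in ctrl and 16.9 in cko. It measured 240 and 305 CPM in ctrl and 199, 175 and 169 CPM in cko, without overlap, and fell by 0.59 on the log2 scale (standard error 0.12, adjusted p = 0.0180 in edgeR). *Itga5*, the classical fibronectin receptor chain, overlapped at 15.7 and 28.2 against 13.5 to 17.6 CPM. *Itga8* was higher in each cko library, at 2.63, 4.03 and 4.41 CPM against 1.53 and 2.19 CPM, and did not pass (log2 fold change 1.00, adjusted p = 0.0732 in edgeR).

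Of the collagen receptor chains, *Itga10*, known from cartilage, was called just inside the threshold, at 5.68 and 5.28 CPM in ctrl and 3.53, 3.43 and 3.22 CPM in cko (log2 fold change -0.69, adjusted p = 0.0491 in edgeR). An annotated transcript on the same strand, *Gm42957*, covers 33.5% of its exon bases, so its reads are uncertain. *Itga2*, the most abundant of this kind, was decided by the ctrl library. It measured 36.7 CPM in ctrl library 1 and 8.48 CPM in ctrl library 3, with the cko libraries between them at 21.5, 18.1 and 17.6 CPM. Its log2 fold change was -0.26 (adjusted p = 0.761 in edgeR), -0.94 without ctrl library 3 (adjusted p = 0.00197) and 1.16 without ctrl library 1 (adjusted p = 0.00231). *Itga1* was placed likewise, at 18.1 and 7.95 CPM in ctrl with the cko libraries between, at 13 to 14.4 CPM. *Itga11* had at most 9 counts in any library.

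The α chains of leukocyte integrins were at or near the floor, with *Itgam* (CD11b) at 0 in all 5 libraries and *Itgad*, *Itgal* and *Itgax* at 8 counts or fewer. For *Itgam*, 68.7% of the exon bases are shared with the readthrough annotation *Gm49368*, so its 0 is uncertain. *Itgae*, the αE chain that binds E-cadherin, was the exception that passed the filter. It measured 1.09 and 1.39 CPM in ctrl and 2.18, 2.74 and 3.26 CPM in cko, without overlap, and rose by 1.15 on the log2 scale (standard error 0.31, adjusted p = 0.0439 in edgeR). The leukocyte marker *Ptprc* (CD45) stayed at or under 0.320 CPM in the same libraries.

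Of the 6 tested β chains 3 fell (50%, beside 8.57% of all tested genes) and 3 were not called. *Itgb7*, among those that fell, needed its ctrl libraries to pass the filter. *Itgb1*, the partner of most α chains, had the highest level per kb of all members, at 116 CPM per kb in ctrl and 117 in cko, and measured 458 and 485 CPM in ctrl and 482, 480 and 475 CPM in cko. The genotypes overlapped, with a log2 fold change of 0.02 and a 95% interval from -0.15 to 0.19. *Itgb8*, whose αvβ8 receptor activates latent TGF-β on neural cells, measured 649 and 503 CPM in ctrl and 774, 670 and 663 CPM in cko, and did not pass (log2 fold change 0.29, adjusted p = 0.169 in edgeR).

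*Itgb5*, the β5 chain of the vitronectin receptor αvβ5, measured 131 and 188 CPM in ctrl and 56.8, 37.3 and 37.2 CPM in cko. The highest cko library was far below the lower ctrl library, and *Itgb5* fell 3.65-fold on the means (log2 fold change -1.87, standard error 0.22, adjusted p = 0.00278 in edgeR). Per kb of exon its level went from 44.9 to 12.3 CPM per kb, so that *Itgb8* stood 1.59 and 0.860 times as high as *Itgb5* in the ctrl libraries and 4.38, 5.78 and 5.73 times as high in the cko libraries. For *Itgb1* over *Itgb5* the ratios were 3.04 and 2.25 in ctrl and 7.38, 11.2 and 11.1 in cko.

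*Itgb4* and *Itgb7* fell from low levels. *Itgb4*, the β4 chain that pairs only with α6 in hemidesmosomes, measured 3.54 and 7.74 CPM in ctrl and 0.615, 1.07 and 0.827 CPM in cko (81 and 145 against 11, 25 and 18 counts). All cko libraries lay far below the ctrl libraries, and *Itgb4* fell by 2.72 on the log2 scale (standard error 0.40, adjusted p = 0.00632 in edgeR). Its α partner *Itga6* rose in the same libraries. *Itgb7*, the partner of α4 and αE, measured 1.83 and 1.39 CPM in ctrl and 0.392, 0.514 and 0.230 CPM in cko, from 42 and 26 against 7, 12 and 5 counts (log2 fold change -2.07, standard error 0.43, adjusted p = 0.0192 in edgeR). Both of its α partners, *Itga4* and *Itgae*, rose. *Itgb3*, the platelet and vascular β3 chain, overlapped at 1.31 and 2.24 against 0.671 to 1.37 CPM, and *Itgb2* and *Itgb6* had at most 6 counts in any library.

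**Figure D3:**
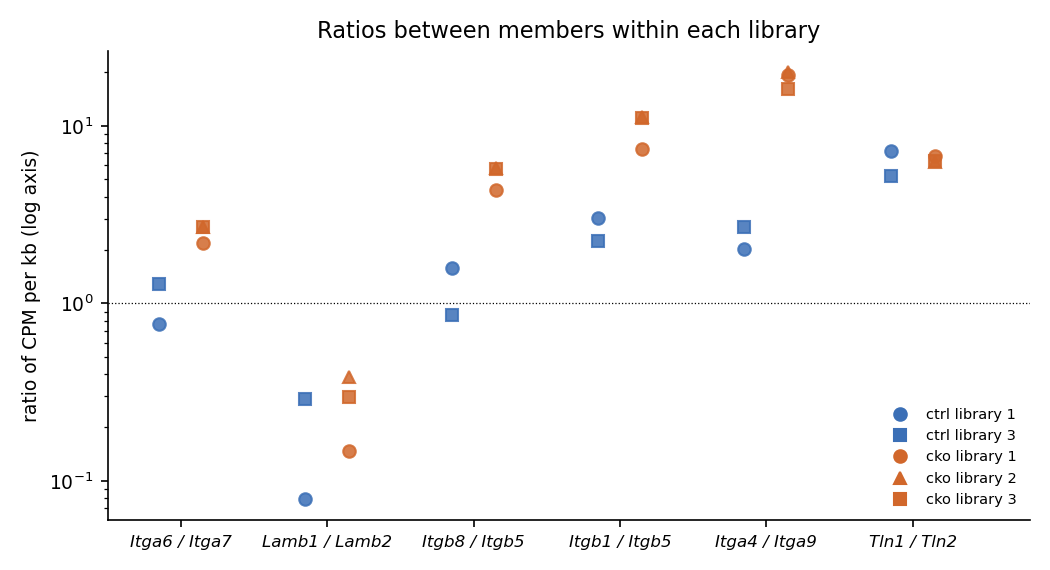
Ratio of normalized CPM per kb of exon (log axis) between 2 members within each library, ctrl in blue and cko in orange, with the dotted line at equal levels. Genotypes are apart for Itga6 over Itga7, Itgb8 and Itgb1 over Itgb5, and Itga4 over Itga9, and overlap for Lamb1 over Lamb2 and Tln1 over Tln2.

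At the focal adhesion, 2 of 10 tested genes were lower (20%, beside 8.57% of all tested genes) and the other 8 were not called. *Bcar1*, the p130Cas scaffold phosphorylated by FAK and SRC, measured 76.5 and 73.2 CPM in ctrl and 48.7, 47.8 and 45 CPM in cko. The libraries were close within each genotype and far apart between them, and *Bcar1* fell by 0.67 on the log2 scale (standard error 0.08, adjusted p = 0.00278 in edgeR). *Fermt2*, kindlin-2, which binds β integrin tails with talin, measured 333 and 335 CPM in ctrl and 259, 243 and 237 CPM in cko. It fell by 0.44 on the log2 scale (standard error 0.07, adjusted p = 0.00943 in edgeR). *Tln1*, the main talin, measured 217 and 198 CPM in ctrl and 206 to 208 CPM in cko, with a log2 fold change of 0.00 and a 95% interval from -0.18 to 0.17. *Pxn* (paxillin) and *Src* were lower in every cko library but not called, at -0.30 and -0.23 on the log2 scale (adjusted p = 0.0841 and 0.0732 in edgeR). *Tln2*, *Vcl* (vinculin), *Parva* (α-parvin) and *Zyx* (zyxin) overlapped between genotypes, with log2 fold changes from -0.24 to 0.11.

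*Ilk*, the integrin-linked kinase, had only 35 to 73 counts in any library (log2 fold change -0.63, adjusted p = 0.194 in edgeR). Of its exon bases, 76.7% overlap *Taf10* on the opposite strand, and how the authors counted such bases is not given in the sources used here, so its level is uncertain. The same holds in part for *Vcl*, of which *Ap3m1* overlaps 25.5%. *Ptk2b*, the FAK relative PYK2, had at most 26 counts and was not tested. *Ptk2* itself, which is no member, measured 133 and 150 CPM in ctrl and 142, 138 and 140 CPM in cko. Its log2 fold change was -0.01, with a 95% interval from -0.19 to 0.17.

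**Figure D4:**
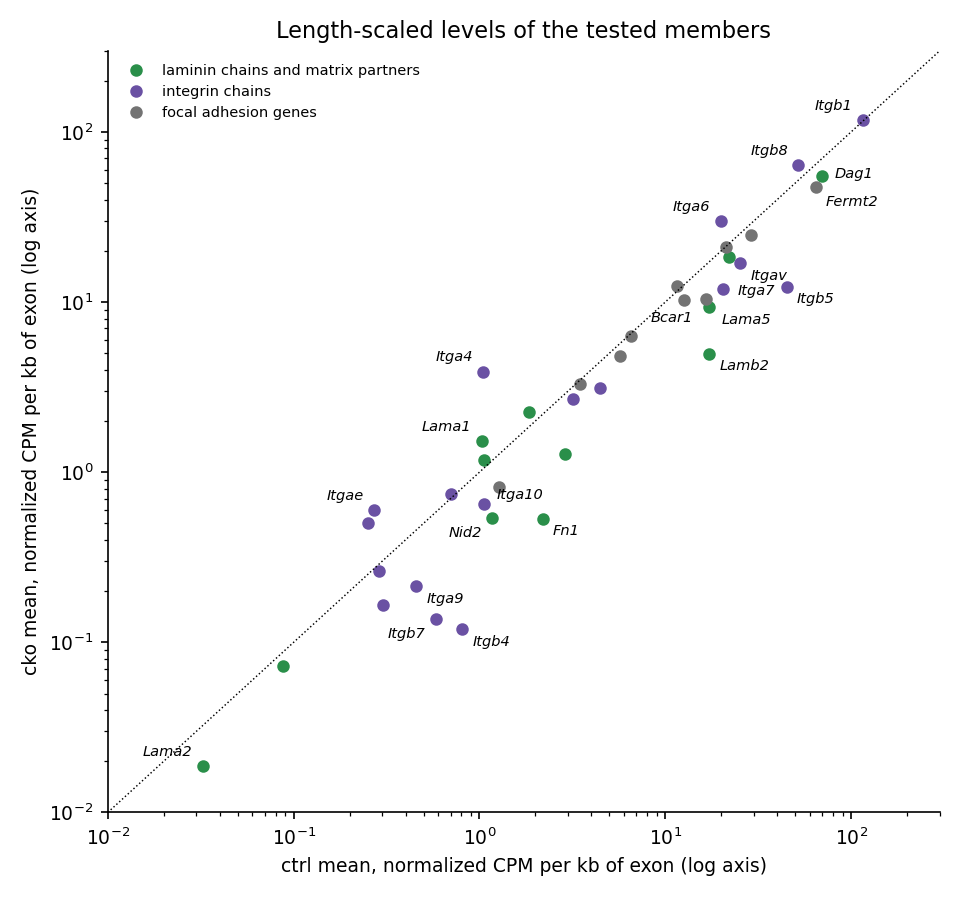
Mean normalized CPM per kb of exon in ctrl (x axis) and cko (y axis) for the 40 tested members, both axes logarithmic, with equality dotted. Itgb1 lies on the line at the top right, Itgb5 and Lamb2 lie below it among the abundant genes, and Itga4 lies above it.

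A second list of 61 adhesion genes outside the members' rule, made of further focal adhesion proteins, dystroglycan partners and the enzymes that glycosylate dystroglycan, gave 58 tested genes. Of these 12 were lower and 5 higher in cko (20.7% and 8.62%, beside 8.57% and 7.86% of all tested genes), and 41 were not called. The median log2 fold change was -0.04. Without cko library 2 or 3, 4 were lower in edgeR, beside 2.55% and 2.80% of all tested genes. *Tns3*, tensin-3, which links integrins to actin, had the smallest p and measured 453 and 436 CPM in ctrl and 231, 201 and 199 CPM in cko. *Tns3* fell by 1.08 on the log2 scale (adjusted p = 0.001075 in edgeR). *Lims2*, PINCH-2 of the ILK complex, fell by 1.41 and *Sorbs3*, vinexin, by 0.73 on the same scale (adjusted p = 0.00352 and 0.00543 in edgeR). In the higher direction stood *Pak1*, a kinase downstream of Rac and Cdc42, with a log2 fold change of 0.74, *Actn1*, α-actinin-1, with 0.57, and *Evl*, an actin polymerase partner, with 0.39 (adjusted p = 0.0154, 0.0216 and 0.0343 in edgeR). Each of these 3 lost the call without cko library 2 or 3, *Actn1* also without cko library 1 and *Evl* also without ctrl library 3.

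Promoter windows from 250 bases before to 50 bases after the RefSeq start (GRCm38.p6) were at hand for 31 of the 51 members, 11 of the 18 called members among them. They are shown for the abundant receptor and ligand genes that fell most and for the gene that rose most, so that the start regions of members with opposite changes can be read side by side. The 6 motifs below were searched by their letters on both strands: GGGCGG (the GC box of Sp1), TGANTCA (AP-1), GGAATG (TEAD), GTGGGAA (RBPJ, the Notch effector), ACAATGG (SOX) and CANNTG (E-box). Capitals mark matches to the first 5, and E-boxes are left in lower case. No marked match overlaps another.
Itgb5 (chr16:33829415-33829714, plus strand): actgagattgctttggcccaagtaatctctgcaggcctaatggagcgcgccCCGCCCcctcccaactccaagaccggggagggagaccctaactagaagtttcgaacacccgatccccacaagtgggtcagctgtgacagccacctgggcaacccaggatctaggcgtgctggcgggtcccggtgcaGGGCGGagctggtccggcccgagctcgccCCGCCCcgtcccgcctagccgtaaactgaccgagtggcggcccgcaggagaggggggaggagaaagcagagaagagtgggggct
Lamb2 (chr9:108479612-108479911, plus strand): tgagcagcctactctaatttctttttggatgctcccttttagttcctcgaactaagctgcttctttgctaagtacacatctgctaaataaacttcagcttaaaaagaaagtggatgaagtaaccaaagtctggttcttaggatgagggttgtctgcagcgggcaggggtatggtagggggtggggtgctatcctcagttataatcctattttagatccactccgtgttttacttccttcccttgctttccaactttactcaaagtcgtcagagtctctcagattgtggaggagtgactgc
Itga4 (chr2:79255176-79255475, plus strand): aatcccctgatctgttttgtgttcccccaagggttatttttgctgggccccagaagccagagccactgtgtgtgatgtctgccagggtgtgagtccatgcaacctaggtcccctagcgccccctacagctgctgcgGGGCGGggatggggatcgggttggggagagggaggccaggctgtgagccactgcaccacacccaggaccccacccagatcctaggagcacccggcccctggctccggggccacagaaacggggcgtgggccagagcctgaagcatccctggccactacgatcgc

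The *Itgb5* window held 3 GC boxes at 65.7% G and C, the *Itga4* window 1 GC box at 64.3%, and the *Lamb2* window none of the first 5 motifs at 44.0%. E-boxes numbered 3, 1 and 1 in *Itgb5*, *Itga4* and *Lamb2*. Over the 37 windows of the 31 members, 22 held a GC box, beside 35.7% of all 32851 windows, and the median G and C content was 63.7% against 52.7%. Of the 12 windows of called lower members, 8 held a GC box, 1 an AP-1, 1 a TEAD, 1 an RBPJ and 0 a SOX match, where all windows held these last 4 in 7.8%, 14.7%, 6.4% and 3.7% of cases. A match describes the letters of the window and not a bound site.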

How the data were processed

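mRNA-seq libraries of E14.5 NSCs were compared between genotypes. According to the methods and labels, the authors filtered reads with NGSQC, aligned them with HISAT2 to mm10 (the labels name GRCm39) and deposited raw counts per Ensembl gene. The counting tool, annotation and strand setting are not given in the sources used here. GENCODE M21 named 31836 of the 32493 gene IDs and gave union exon lengths. Counts of 5 libraries were filtered with filterByExpr, normalized by TMM and tested with the quasi-likelihood test of edgeR 4.0.16 (R 4.3.3), with calls at an adjusted p under 0.05 over all 16710 genes. Standard errors were taken from the log2 fold change and its F statistic. Steps were tested on simulated data.

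The ctrl replicate 2 column was counted in no n. Alternatives were DESeq2 1.42.0, other size factors and filters, a replicate block, all 6 columns, a second call rule and leaving out each library. The members, gene lists and the choice of libraries were fixed with earlier results of these data known. Values per library were given for called members and for the highest member per kb of each role, and other members that are named with values were chosen after their values were seen. Of the second list, the 3 genes with the smallest p in each direction were named. Replicate numbers were not shown to pair the libraries: same-numbered libraries deviated with r = 0.2 and 0.057 across genes, and with 2 ctrl libraries, whose deviations mirror each other, this check cannot exclude pairing. Values of some genes of the lists are not reported here.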

Additional observations from a re-analysis of the deposited data

How the results depend on the processing

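Leaving out each library in turn gave 5 to 16 members lower and 1 to 6 higher, and 4 to 14 lower and 0 to 5 higher genes of the second adhesion list. The last count was 0 without cko library 2 or 3, beside 1.95% and 2.06% of all tested genes higher. There, 5 genes had an unadjusted p under 0.05 in edgeR, and DESeq2 was run with all 5 libraries only (5 genes). The members' median log2 fold change lay between -0.40 and -0.31 when each library was left out in turn and at -0.39 with no filter on low counts. *Itga2* reversed to 1.16 without ctrl library 1 and was -0.94 without ctrl library 3. When ctrl was a single library, it was assumed to vary like the cko libraries. The rule of a log2 fold change beyond 0.9 with an unadjusted p under 0.01 gave 7 members lower and 2 higher and 0 genes of the second list higher (6 at an unadjusted p under 0.05 in edgeR). With the replicate block, which takes the difference from replicates 1 and 3 only, 11 members were lower and 2 higher, 2 genes of the second list were higher (beside 6.37% lower and 5.49% higher of all tested genes), and *Lama1*, *Nid2*, *Dag1*, *Itga10*, *Itga9* and *Itgae* lost the call. Neither replicate number was shown to mark a pair. DESeq2 and median-of-ratios size factors called all 18 members called in the comparison reported. All 6 columns did so too, but the ctrl replicate 2 column is an average of the other ctrl columns and narrows the ctrl spread. That fit called 17.1% of all tested genes lower and 17.6% higher, so keeping the 18 calls is no independent check. No filter lost *Itga10*, and at least 10 counts in every library left *Itgb7* untested. The cause of these shifts was not tested. Only 2 ctrl libraries carry counts of their own, which limits every comparison, and members under about 1 CPM rest on few reads.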
